A study of Mus musculus with 20 samples.

Results

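Lachnospirales is an order of gut bacteria in the class Clostridia, and it was followed here in the feces of mice 5 days after a chemotherapy cycle. The members are the columns of the count tables whose lineage names Lachnospirales and which held at least 1 read in the 20 samples. They were 3 of the 45 family entries with a read, 48 of the 149 genus entries and 69 of the 204 species entries. A further 3 genus columns of the order (Roseburia, CAG-510 and Lachnoclostridium_B) and 6 species columns had no read in any mouse. The samples were fecal pellets of female C57BL/6 mice aged 8 to 14 weeks, 1 per mouse, from 10 control mice given PBS or water and 10 FO mice. FO stands for oxaliplatin at 3.5 mg/kg by intraperitoneal injection, then 5-fluorouracil (5-FU) at 50 mg/kg 1 h later and again on the next day. Each group had 5 mice in batch E53B and 5 in batch E56A. No sample from before treatment was analysed here, so a level that differed between mice or groups cannot be set against its baseline. The mice were co-housed before treatment, their cages are not given, and p-values therefore measure the spread between mice as sampled.

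Members of Lachnospirales are mostly strict anaerobes of the large intestine that ferment plant and mucus polysaccharides and leave short-chain fatty acids, above all acetate and butyrate. Butyrate is a main fuel of colonocytes. Many members form spores, and mouse Lachnospiraceae in particular are often known only from genomes, so that database names such as UBA3282, CAG-95 or COE1 stand for genera that have no Latin name. In the usual mouse gut they share the lumen and the mucus layer with Bacteroidales, mainly Muribaculaceae, and with Oscillospirales.

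The measurement was sequencing of V4 amplicons from the gene for bacterial 16S ribosomal RNA, read as counts per taxon. Total counts ran from 17218 to 57415 per mouse, of which 916 to 11755 belonged to Lachnospirales. Amplicons were pooled in equal amounts, so a count gives a share of the bacterial reads and not a number of bacteria. A rise of 1 taxon and a fall of the others cannot be told apart from shares. The Lachnospirales reads summed to the same number in the order, family, genus and species tables in all 20 samples, and no read was assigned to chloroplasts or mitochondria. Control replicate 1 and FO replicate 5, both of batch E56A, were at least as near to the other group as to their own in an earlier look at the whole community. Calls that changed without these 2 mice are given. Because they were picked for lying near the other group, leaving them out tends to widen differences between the groups.

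FO mice had a larger share of Lachnospirales than control mice. The order held 1.67% of all reads in the lowest control mouse, 7.55% at the median and 9.43% in the highest. In FO mice the lowest value was 9.43%, the median 16.4% and the highest 23.4%. In total 9 of 10 FO mice lay above all control mice, and FO replicate 2, the exception, lay just under control replicate 6. The mean was 7.10% ± 2.38 (SD, n = 10) in control mice and 16.1% ± 4.45 (SD, n = 10) in FO mice, a ratio of 2.26. The difference of 8.96 percentage points was larger than the spread between mice (two-sided permutation test, p = 2e-05, adjusted p = 0.00012 over 18 orders). Of the 18 orders tested in this way, 50.0% passed the 5% threshold. The difference was 8.20 points in batch E53B and 9.72 points in batch E56A (exact permutation test of 5 against 5 mice, p = 0.00794 in both, which is the lowest p that 5 against 5 can reach), and it did not differ between the batches beyond the spread (exact permutation of batch labels within groups, p = 0.648). Without control replicate 1 and FO replicate 5 it was 9.56 points.

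The larger share came together with a smaller share of Bacteroidales, which held 86.2% ± 4.37 (SD, n = 10) of the reads in control mice and 66.6% ± 7.64 (SD, n = 10) in FO mice. Among the reads outside Bacteroidales, Lachnospirales held 50.9% ± 4.02 (SD, n = 10) in control mice and 48.01% ± 6.42 (SD, n = 10) in FO mice. The lowest, median and highest values on that scale were 45.3%, 50.3% and 59.3% in control mice. They were 37.8%, 50.7% and 55.1% in FO mice, so that no FO mouse lay above all control mice. The difference of -2.84 points was within the spread between mice (permutation test, p = 0.253, adjusted p = 0.531 over 17 orders). Its direction was not the same in the 2 batches. In batch E53B the mean was 53.4% ± 3.84 (SD of 5 mice) in control mice and 45.2% ± 6.98 in FO mice. In batch E56A it was 48.3% ± 2.40 (SD of 5 mice) in control mice and 50.8% ± 4.89 in FO mice. Whether the difference depended on batch was not tested on this scale. The denominator of reads outside Bacteroidales was chosen after the data were seen. On the centred log ratio over orders, which sets each order against the average order, the difference was 0.48 on the log2 scale and did not pass either (adjusted p = 0.183).

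**Figure D1:**
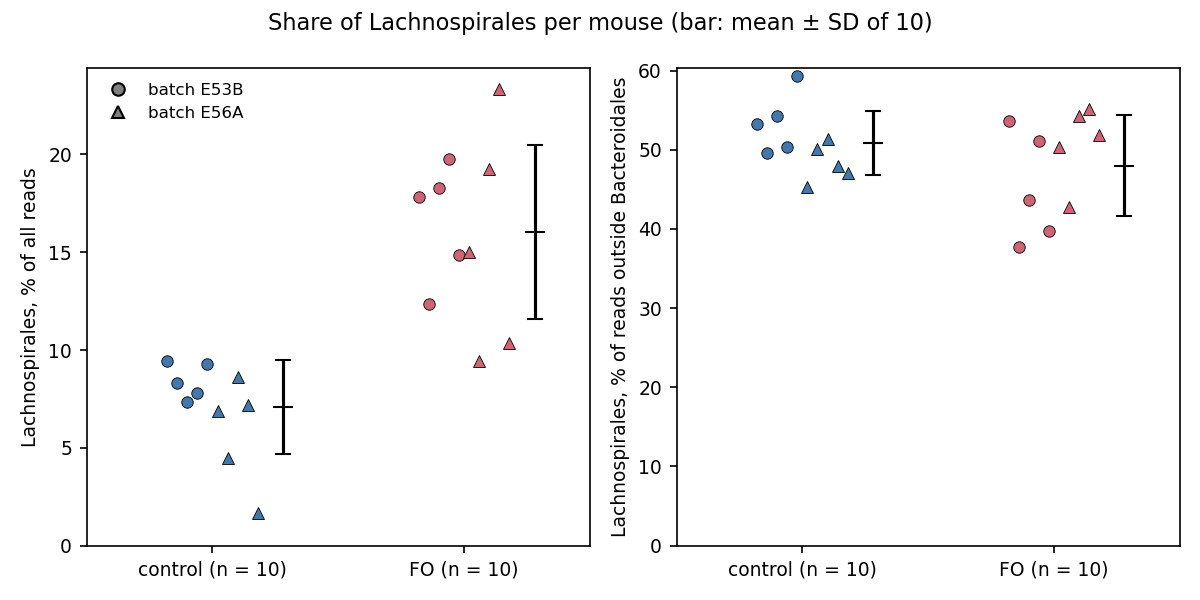
Share of Lachnospirales per mouse, in percent of all reads (left) and in percent of the reads outside Bacteroidales (right); points are mice, circles batch E53B, triangles batch E56A, bars the mean ± SD of 10 mice. FO mice lie between 9.43% and 23.4% of all reads and control mice between 1.67% and 9.43%, whereas on the right both groups center near 50%.

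Nearly all reads of the order belonged to 1 family. Lachnospiraceae, which holds most of the cultured butyrate and acetate formers of the order, took 98.3% ± 0.517 (SD, n = 10) of the order's reads in control mice and 98.3% ± 0.523 (SD, n = 10) in FO mice. Of all reads it held 6.98% ± 2.36 (SD, n = 10) in control mice and 15.8% ± 4.41 (SD, n = 10) in FO mice. Anaerotignaceae, a small family whose genus Anaerotignum ferments amino acids and sugars, held 0.020% to 0.134% of all reads in control mice (median 0.0883%). It held 0.0631% to 0.408% in FO mice (median 0.227%), and 8 of 10 FO mice lay above all control mice. The entry with a blank family name held 0.029% ± 0.0139 (SD, n = 10) of all reads in control mice and 0.0505% ± 0.0405 (SD, n = 10) in FO mice. As a share of the order it was highest in 2 mice of batch E56A, control replicate 5 with 1.64% and FO replicate 2 with 1.44%.

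How these families were judged depended on the scaling. With trimmed mean of M-values (TMM) scaling, which sets each family against the bulk of families, edgeR's quasi-likelihood test called 0 of the 3 families at 5%. The background was 4.0% of 25 families called. The log2 change was 0.06 ± 0.21 (SE) for Lachnospiraceae (edgeR adjusted p = 0.924), 0.24 ± 0.33 for Anaerotignaceae (edgeR adjusted p = 0.69) and -0.61 ± 0.40 for the blank family (edgeR adjusted p = 0.418). At an unadjusted p under 0.05 the count was 0 of the 3 and 5 of all 25 families, and with DESeq2 0 of the 3 and 4 of all 25. With library totals in place of TMM, Lachnospiraceae was higher in FO mice by 1.20 ± 0.23 on the log2 scale (SE, edgeR adjusted p = 0.000199) and Anaerotignaceae by 1.35 ± 0.37 (edgeR adjusted p = 0.0043). In that fit 52.0% of the 25 families were called higher and 1 lower, whereas the 1 family called with TMM was lower.

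Inside the order a few entries carried most reads. UBA3282, CAG-95 and the Lachnospiraceae entry with no genus assigned together held 78.3% ± 4.88 (SD, n = 10) of the order's reads in control mice and 73.2% ± 12.0 (SD, n = 10) in FO mice. UBA3282 was the leading entry in 7 control and 5 FO mice, CAG-95 in 3 control and 4 FO mice, and Kineothrix in FO replicate 4. The 11 genus entries found in all 20 mice held 93.04% of the order's reads, and the 3 entries found in 1 mouse held 0.0108%. The 8 entries with a mean of at least 0.1% of all reads are described below by rule. The other 40 made up the small remainder of each mouse, which the stacked plot shows.

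**Figure D2:**
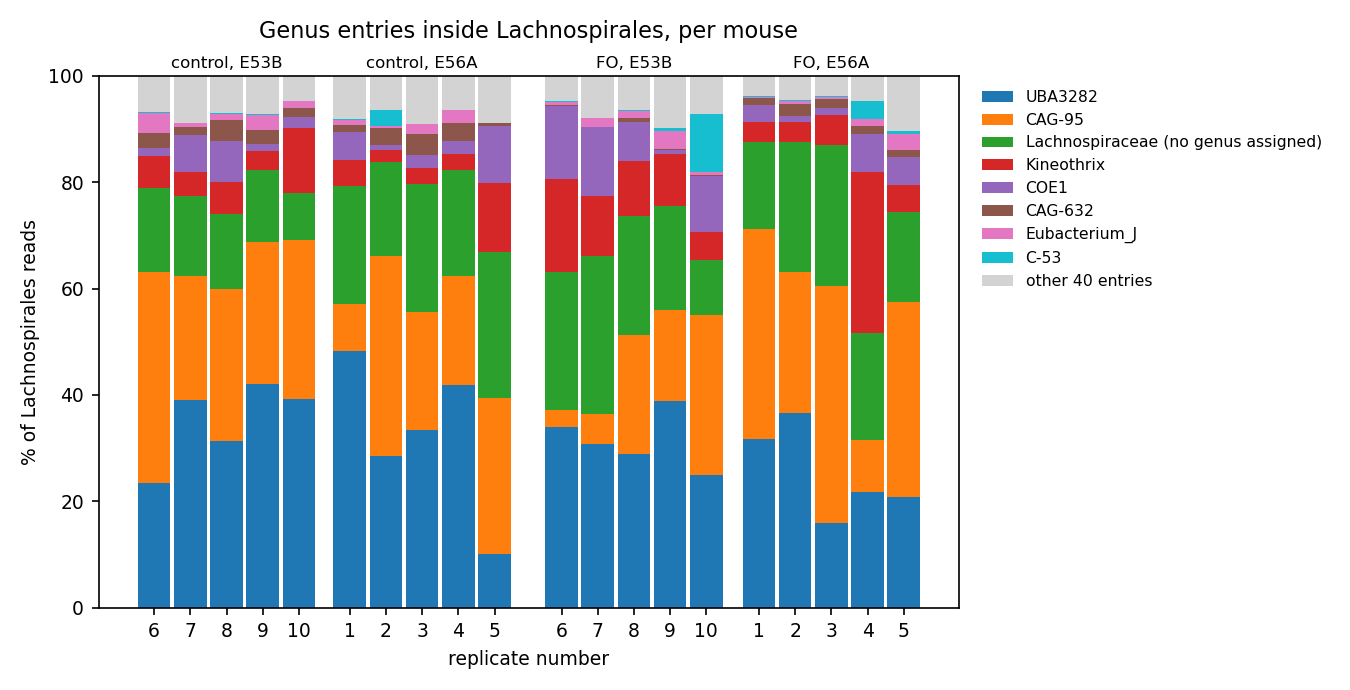
Genus entries as a percentage of the Lachnospirales reads of each mouse, in stacked bars; columns are mice by group and batch, labelled by replicate number, and grey is the sum of the 40 entries not named. UBA3282 holds 10.2% to 48.2% of the order's reads over the 20 mice, and Kineothrix reaches 30.3% in FO replicate 4.

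Of the 48 genus entries, 16 passed the filter on low counts and were tested. The 32 others held 3.90% of the order's reads. With TMM, 2 of the 16 were called and both were higher in FO mice, namely Kineothrix and the Lachnospiraceae entry with no genus assigned. The background was 22.0% of 59 genus entries called, 6 higher and 7 lower. With library totals 7 of the 16 were called, all higher in FO mice, and they were those 2 and COE1, Ventrimonas, Coprocola, Merdisoma and UBA3282. Among all 59 genus entries 42.4% were then called higher, and the calls split into 25 higher and 4 lower. The median log2 change over all 59 entries was 0.23 with TMM and 0.99 with library totals, and the median over the 16 entries was 0.32 and 1.03. Changes of the tested genera named below are therefore given with both scalings and also relative to the reads of the order, where the same edgeR test used the log of each mouse's order reads as an offset. On this last measure 1 of 16 was called, CAG-632, which was lower in FO mice, against a background of 10.4% of 48 entries in 4 orders.

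**Figure D3:**
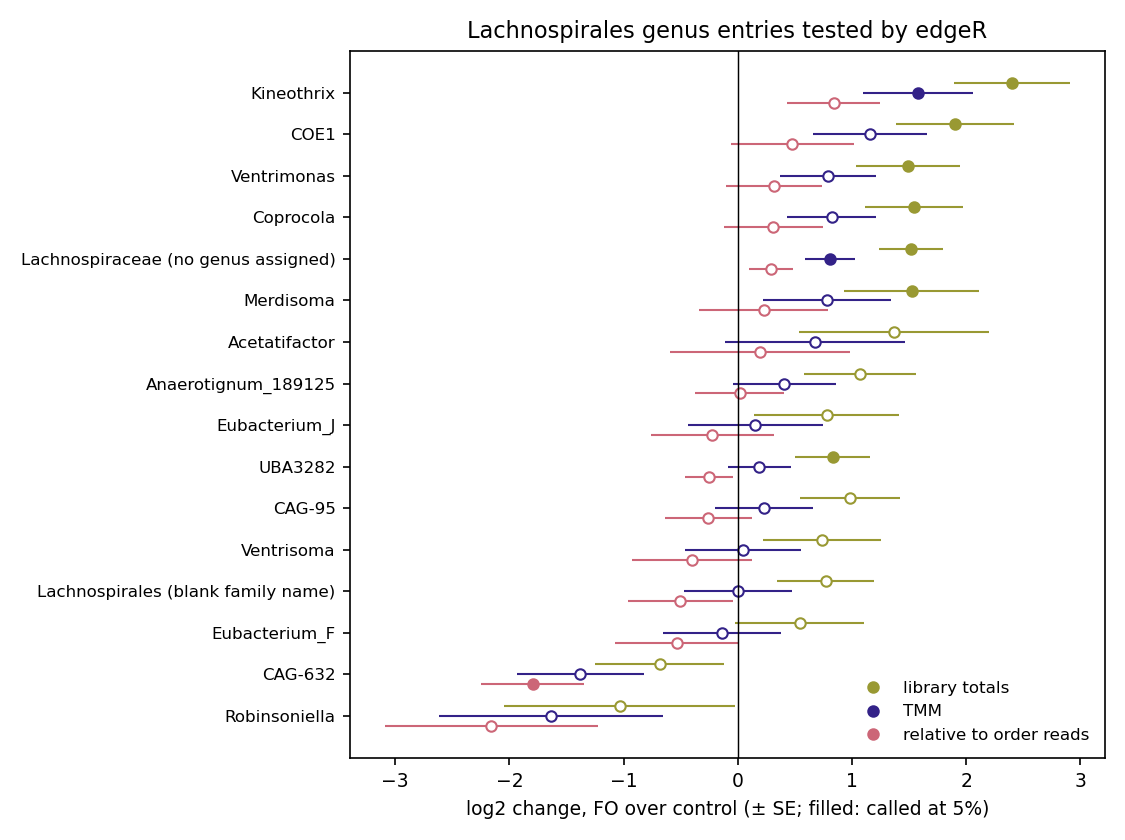
Log2 change in FO over control mice of the 16 Lachnospirales genus entries tested by edgeR, with SE as bars, under library totals, TMM and relative to the order's reads; filled points were called at 5%. Kineothrix lies highest under each measure, at 2.40, 1.58 and 0.84, and only CAG-632 is called relative to the order, at -1.80.

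The Lachnospiraceae entry with no genus assigned gathers reads that the classifier could place in the family but not in a genus. It held 0.457% of all reads in the lowest control mouse, 1.15% at the median and 2.08% in the highest. In FO mice it held 1.53%, 3.77% and 5.12%, and 8 of 10 FO mice lay above all control mice. The mean was 1.19% ± 0.464 (SD, n = 10) in control mice and 3.41% ± 1.30 (SD, n = 10) in FO mice. The log2 change was 0.81 ± 0.22 (SE) with TMM (edgeR adjusted p = 0.0109) and 1.51 ± 0.28 with library totals (edgeR adjusted p = 0.00107). Set against the order's reads it was 0.29 ± 0.19 and did not pass (edgeR adjusted p = 0.327). The TMM call was kept in 14 of the 20 fits that each left out 1 mouse, and it was lost without control replicate 2, 4, 5, 7, 8 or 9 (log2 changes of 0.53 to 0.61). In neither batch alone was it called (0.70, edgeR adjusted p = 0.0784 in E53B and 0.84, edgeR adjusted p = 0.274 in E56A). The fit of E53B alone called 12 of all 61 genera tested, and that of E56A alone 0 of 62. As a share of the order, 4 of the 5 FO mice of batch E53B lay above all 5 control mice of that batch, and none did in batch E56A.

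Kineothrix is a genus whose cultured species makes butyrate from sugars. All of its reads were in the entry Kineothrix sp000403275. It held 0.103%, 0.303% and 1.15% of all reads in the lowest, median and highest control mouse. The corresponding values in FO mice were 0.363%, 1.24% and 7.08%. The groups overlapped, since 5 of 10 FO mice lay above all control mice, but in batch E56A all 5 FO mice exceeded all 5 control mice. The highest control mouse, replicate 10, stood well above the next at 0.554%, and so did FO replicate 4 above the next FO mouse at 3.14%. The log2 change was 1.58 ± 0.48 (SE) with TMM (edgeR adjusted p = 0.0233) and 2.40 ± 0.51 with library totals (edgeR adjusted p = 0.00141). The TMM call was kept in 11 of the 20 fits that each left out 1 mouse. It was lost without FO replicate 4, where the change was 0.82 (edgeR adjusted p = 0.0726), without FO replicate 6 and without control replicate 1, 2, 4, 5, 7, 8 or 9 (1.13 to 1.41). Without control replicate 1 and FO replicate 5 together it was 1.38 (edgeR adjusted p = 0.056). In neither batch alone was it called (0.72, edgeR adjusted p = 0.307 in E53B and 2.25, edgeR adjusted p = 0.149 in E56A). In E56A alone 0 of all 62 genera tested were called. At the species level it was 1.59 ± 0.46 (edgeR adjusted p = 0.0131) and was lost without FO replicate 4 or control replicate 2.

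As a share of the order's reads Kineothrix held 2.31% to 12.9% in control mice (median 4.67%) and 3.75% to 30.3% in FO mice (median 7.67%). The value in FO replicate 4 rested on 3562 of 11755 reads (95% Wilson interval 29.5% to 31.1%, counting error only). The log2 change relative to the order was 0.84 ± 0.41 (SE) and did not pass (edgeR adjusted p = 0.163).

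UBA3282, a genus known from genomes, was the most abundant entry of the order, with 29970 reads. It held 0.169%, 2.95% and 3.64% of all reads in the lowest, median and highest control mouse. In FO mice these values were 2.16%, 4.29% and 7.71%, and 7 of 10 FO mice lay above all control mice. The lowest control value belonged to replicate 5, the mouse with the fewest Lachnospirales reads. The log2 change was 0.19 ± 0.28 (SE) with TMM (edgeR adjusted p = 0.689) and 0.83 ± 0.33 with library totals (edgeR adjusted p = 0.0396). Against the order's own reads it was -0.25 ± 0.21 (edgeR adjusted p = 0.523). Nearly all its reads, 29866, were in UBA3282 sp003611805.

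CAG-95, also a genus named from genomes, had 25878 reads, and its pattern differed from mouse to mouse. It held 0.489%, 1.93% and 3.74% of all reads in the lowest, median and highest control mouse and 0.569%, 3.58% and 8.55% in FO mice. In batch E56A all 5 FO mice lay above all 5 control mice. In batch E53B 2 FO mice lay above and 2 below all control mice of that batch. The 2 low mice were FO replicates 6 and 7, in which CAG-95 held 3.19% and 5.48% of the order's reads. The log2 change was 0.23 ± 0.43 (SE) with TMM (edgeR adjusted p = 0.803), 0.98 ± 0.44 with library totals (edgeR adjusted p = 0.0648) and -0.26 ± 0.38 relative to the order (edgeR adjusted p = 0.659).

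The species entries of CAG-95 showed that the low values of FO replicates 6 and 7 lay in 1 of them. CAG-95 sp000403495 made up 86.99% to 98.2% of the genus in control mice and 88.7% to 96.7% in the 8 other FO mice. In FO replicate 6 it made up 33.7% of the genus (33 of 98 reads) and in FO replicate 7 54.7% (150 of 274 reads). CAG-95 sp009917455 held 0.0127% to 0.179% of all reads in control mice and 0.104% to 0.419% in FO mice, and 8 of 10 FO mice lay above all control mice. Its log2 change was 0.63 ± 0.32 (SE) with TMM (edgeR adjusted p = 0.164) and 1.22 ± 0.37 with library totals (edgeR adjusted p = 0.011).

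COE1, another genus named from genomes, held 0.0366%, 0.182% and 0.587% of all reads in the lowest, median and highest control mouse. In FO mice it held 0.104%, 0.941% and 2.43%. The groups overlapped, and 5 of 10 FO mice lay above all control mice. The log2 change was 1.16 ± 0.50 (SE) with TMM, which did not pass (edgeR adjusted p = 0.0856) except without FO replicate 9 (1.29, edgeR adjusted p = 0.0473). With library totals it was 1.90 ± 0.51 (edgeR adjusted p = 0.00538), and relative to the order 0.48 ± 0.54 (edgeR adjusted p = 0.636). Most reads were in COE1 sp000403215, which was listed with no read in FO replicates 1 and 2 and held 2.34% of all reads in FO replicate 6. For the 2 mice without a read, a count of 0 allows up to 0.00591% of all reads (3 counts). COE1 sp000403335 held a mean of 0.0759% of all reads in control mice and 0.131% in FO mice, with a log2 change of 0.08 ± 0.61 with TMM (edgeR adjusted p = 0.953), 0.80 ± 0.58 with library totals (edgeR adjusted p = 0.226) and -0.71 ± 0.67 relative to the order (edgeR adjusted p = 0.536).

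CAG-632, a genus named from genomes, was the entry called lower relative to the order. All its 1571 reads were in CAG-632 sp900539185. It held 0.0091%, 0.176% and 0.337% of all reads in the lowest, median and highest control mouse and 0.0197%, 0.129% and 0.364% in FO mice. As a share of the order it held 0.546%, 2.69% and 4.05% in control mice and 0.16%, 0.992% and 2.30% in FO mice, and 4 of 10 FO mice lay below all control mice. Relative to the order the log2 change was -1.80 ± 0.45 (SE, edgeR adjusted p = 0.00772), and the call was made in all 20 fits that each left out 1 mouse. At the species level the value was again -1.80 (edgeR adjusted p = 0.0064), where 21.7% of 60 species entries were called relative to their order. With TMM the change was -1.38 ± 0.55 and did not pass (edgeR adjusted p = 0.0668), although it did with DESeq2 (-1.49, adjusted p = 0.00719) and in edgeR without control replicate 1 (-1.67) or 5 (-1.76). Its value with library totals was -0.68 ± 0.56 (edgeR adjusted p = 0.291). The permutation test of its share of the order missed the threshold narrowly (p = 0.00322, adjusted p = 0.0515 over 48 entries).

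The lower values of CAG-632 lay in batch E53B. The 5 control mice of that batch, replicates 6 to 10, held 124, 56, 130, 73 and 63 reads of CAG-632, which were 2.83%, 1.47%, 4.05%, 2.55% and 1.65% of the order. The 5 FO mice, replicates 6 to 10, held 7, 8, 50, 14 and 20 reads, which were 0.228%, 0.16%, 0.666%, 0.202% and 0.27% of the order. No FO mouse of the batch reached a control mouse on this scale. As a share of all reads the highest FO mouse, replicate 8 with 0.12174%, lay just under the lowest control mouse, replicate 7 with 0.12223%. In batch E56A the share of the order was 0.546% to 3.91% in control mice and 1.32% to 2.30% in FO mice, so the groups overlapped. The log2 change relative to the order was -3.01 ± 0.53 (SE, edgeR adjusted p = 0.00112) in batch E53B alone and -0.64 ± 0.47 (edgeR adjusted p = 0.63) in batch E56A alone. The difference between the batches was 2.37 ± 0.67 and did not pass over the 48 entries (edgeR interaction, p = 0.00195, adjusted p = 0.0935). Without a batch term the call was lost (-1.38, edgeR adjusted p = 0.0688).

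**Figure D4:**
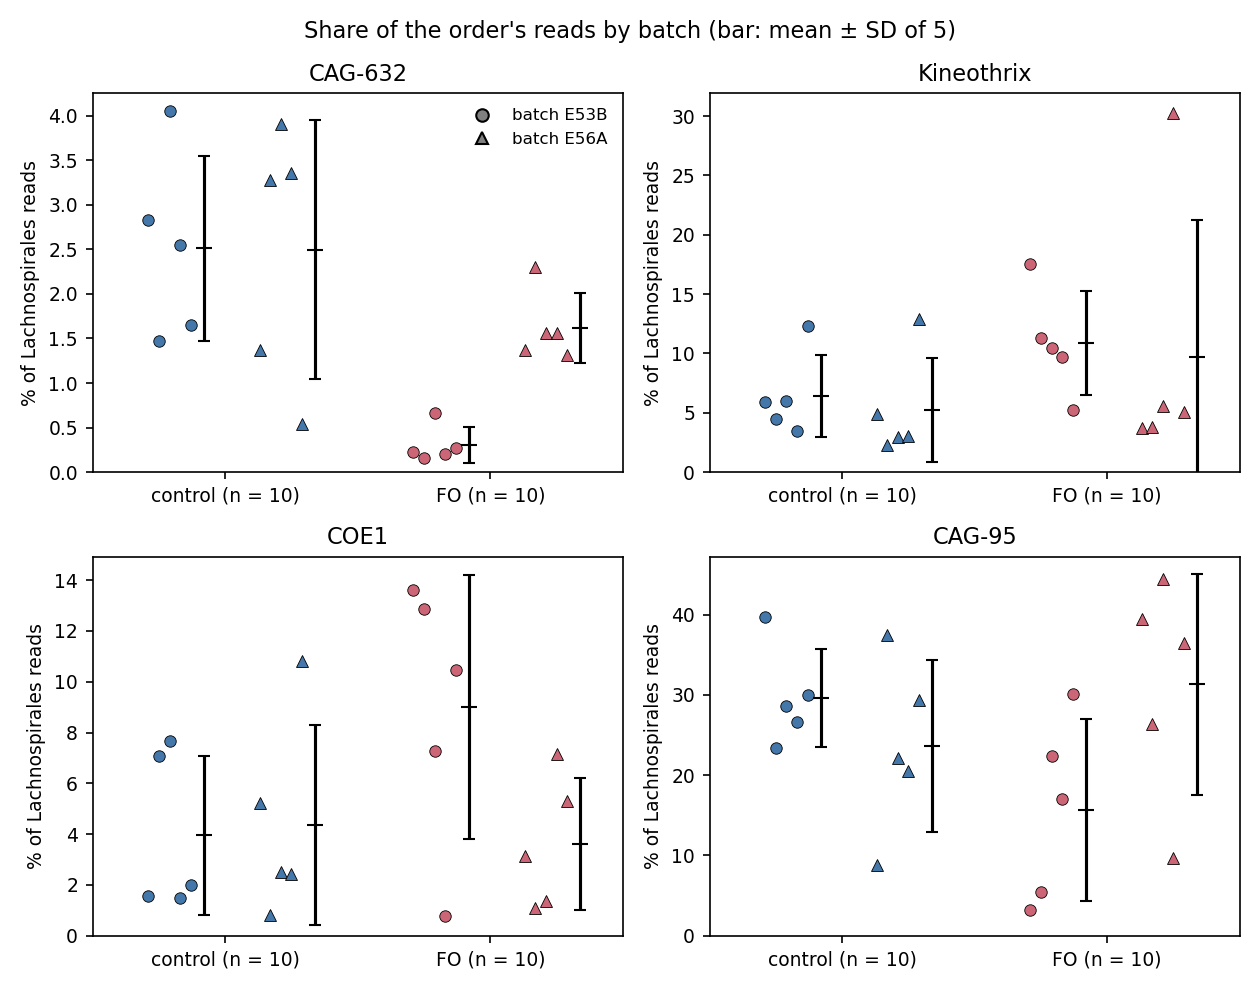
Share of the order's reads per mouse of CAG-632, Kineothrix, COE1 and CAG-95, by group and batch; points are mice and bars the mean ± SD of 5 mice, cut at 0. For CAG-632 the 5 FO mice of batch E53B lie at 0.666% or less and the 5 control mice of that batch at 1.47% or more.

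Eubacterium_J, here the single species entry Eubacterium_J plexicaudatum, a butyrate former first isolated from mice, did not separate the groups. It held a median of 0.104% of all reads in control mice (0 to 0.353%) and of 0.153% in FO mice (0.0295% to 0.659%). Its log2 change was 0.15 ± 0.59 (SE) with TMM (edgeR adjusted p = 0.905), 0.78 ± 0.64 with library totals and -0.22 ± 0.54 relative to the order. Control replicate 5 had no read, which allows a share of up to 0.00546% of all reads.

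C-53 reached the 0.1% mean through a few mice. It had a read in 6 control and 10 FO mice, and it did not pass the filter on low counts. The median was 0.00679% of all reads in control mice and 0.0226% in FO mice. The highest values were 1.62% in FO replicate 10, 0.797% in FO replicate 4 and 0.129% in control replicate 2. Its reads fell into 2 species entries that did not meet in a mouse. The entry with a blank species name was found in 5 mice and C-53 sp003612525 in 11, with 0 mice in common and 4 with neither. The 3 high mice carried the entry with a blank species name.

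The genus entries were also sorted into lists by name alone, after database suffixes such as that of Anaerotignum_189125 were removed. Entries such as Eubacterium_F and Eubacterium_J, which the database keeps apart, thus counted under the same name. Which acids the entries of these mice form was not measured, and Acetitomaculum was counted among the other Latin names. Of the 8 entries on the list of names with cultured butyrate formers, 3 were tested with TMM and 1, Kineothrix, was higher, with a median log2 change of 0.15. Their summed share was 0.6% ± 0.347 (SD, n = 10) of all reads in control mice and 2.22% ± 2.09 (SD, n = 10) in FO mice, of which Kineothrix made up the larger part. The 5 entries on the list of names for acetate or mixed acids, such as Acetatifactor and Enterocloster, summed to 0.0702% ± 0.0488 (SD, n = 10) and 0.166% ± 0.167 (SD, n = 10), and 0 of the 1 tested was called. The 11 entries with a placeholder name, one that still holds a digit without its suffix, summed to 4.92% ± 1.75 (SD, n = 10) and 9.66% ± 2.39 (SD, n = 10), and of the 4 tested 0 were called with TMM, with a median log2 change of 0.21. The 5 entries with a blank or missing genus name had 1 of 2 called higher and a median of 0.41, the 19 with other Latin names 0 of 6 called and a median of 0.59, and the 1 acetate entry tested a change of 0.68. The median over all 59 genera was 0.23, and 22.0% of them were called, 6 of the 59 as higher. With library totals 3 of the 6 other Latin names were called higher (median 1.28), 2 of the 4 placeholder names (0.91), 1 of the 3 in the butyrate list (0.78), 1 of the 2 with a blank or missing name (1.14) and 0 of the 1 in the acetate list (1.37), against 42.4% called higher and a median of 0.99 over all 59 genera. Relative to the order the 1 call, CAG-632, was among the placeholder names. Of the order's reads, the placeholder names took 68.0% ± 7.25 (SD, n = 10) in control and 61.4% ± 10.8 (SD, n = 10) in FO mice, and the butyrate list 8.50% ± 3.49 (SD, n = 10) and 12.4% ± 8.41 (SD, n = 10).

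At the species level 17 of the 69 entries passed the filter, and 2 were called with TMM, both higher in FO mice: Kineothrix sp000403275 and the Lachnospiraceae entry with no genus assigned. The background was 23.9% of 71 species entries called, 7 higher and 10 lower. With library totals 8 of the 17 were called higher, where 40.8% of all 71 entries were called higher and 6 were called lower. Without control replicate 1 and FO replicate 5, 3 entries were called with TMM, those 2 and CAG-632 sp900539185, which was lower. The 52 entries not tested held 5.01% of the order's reads.

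Presence per mouse was compared for the 58 species entries found in 1 to 19 mice. Fisher's exact test, two-sided, called 0 of them after adjustment over all 155 such entries of the table, of which 0.0% were called. At an unadjusted p under 0.05 the count was 4 of all 155 entries and 1 of the 58, Enterocloster sp000431375, found in 1 control and 7 FO mice with at most 6 reads each (Fisher's exact test, p = 0.0198, adjusted p = 0.896). Enterocloster is a genus of gut bacteria that were formerly placed in Clostridium. With a count above 3 as presence it was found in 0 control and 3 FO mice (Fisher's exact test, p = 0.211). The 1 entry of the order under 0.05 was then the Anaerotignaceae entry with a blank genus name, in 1 control and 7 FO mice (Fisher's exact test, p = 0.0198, adjusted p = 0.626). Paralachnospira, in its entry with a blank species name, was found in 7 control and 2 FO mice (Fisher's exact test, p = 0.0698, adjusted p = 0.896). Only 5 entries, with 28 reads in all, were found in FO mice alone and 2 entries, with 4 reads, in control mice alone. These counts were not set against the same counts over all species entries. Presence was compared at unequal numbers of order reads, on average 3185 in control and 6967 in FO mice.

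The number of entries found was compared with and without setting the reads of the order equal. A control mouse had 22 to 43 of the 69 species entries (mean 34.6 ± 6.35, SD, n = 10) and an FO mouse 30 to 48 (mean 39.9 ± 6.47, SD, n = 10). Control mice had a mean of 3185 Lachnospirales reads and FO mice 6967. When each mouse was drawn down to 916 order reads, 29.2 ± 4.50 entries (SD, n = 10) were expected in control mice and 28.4 ± 4.003 (SD, n = 10) in FO mice. The difference of -0.719 entries was within the spread between mice (permutation test, p = 0.709, adjusted p = 0.709 over 4 orders).

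Evenness inside the order did not separate the groups either. The Shannon index inside Lachnospirales, a measure of how many entries share the reads and how evenly, ran from 1.73 to 2.05 in control mice with a median of 1.93. In FO mice it ran from 1.65 to 2.22 with a median of 1.97. The means were 1.92 ± 0.107 (SD, n = 10) and 1.91 ± 0.200 (SD, n = 10), and the difference of -0.0111 was within the spread (permutation test, p = 0.879, adjusted p = 0.879 over 4 orders). FO mice were found at both ends of the range. FO replicates 1, 2 and 3, all of batch E56A, lay below all control mice, and FO replicates 5 and 10 lay above all of them. Of the 4 orders with enough reads in every mouse, Bacteroidales was the one whose index passed (difference 0.284, permutation test, adjusted p = 0.0038). The difference between these orders was not tested.

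**Figure D5:**
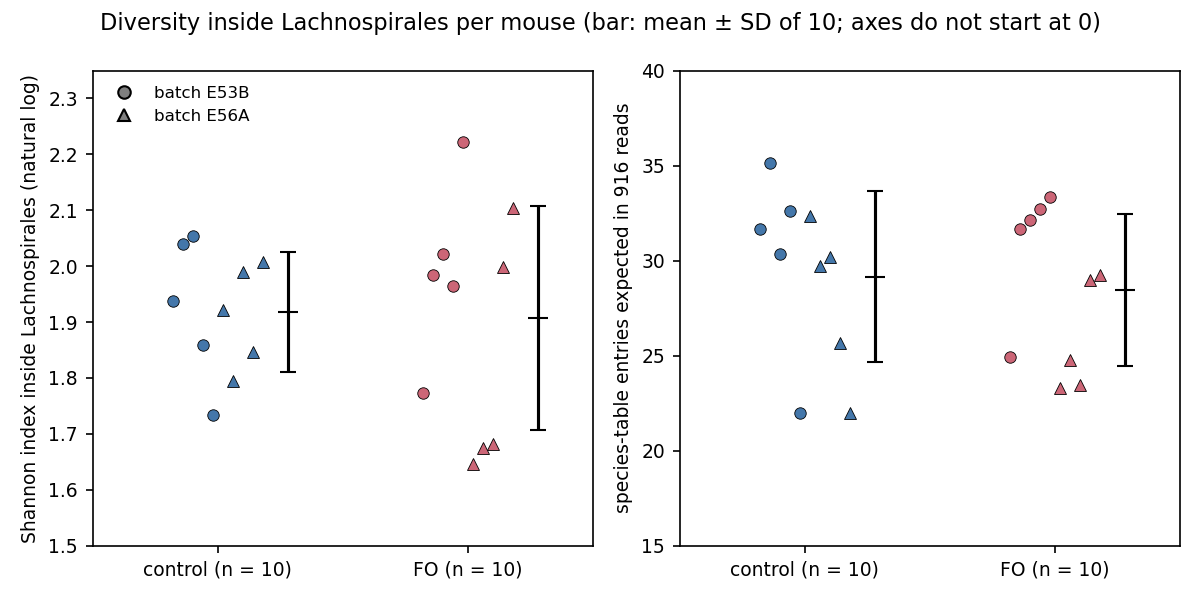
Shannon index inside Lachnospirales (left) and number of species-table entries expected in 916 reads of the order (right) per mouse; points are mice, circles batch E53B, triangles batch E56A, bars the mean ± SD of 10 mice, and the axes do not start at 0. Both groups center near 1.9 on the left, and FO mice spread from 1.65 to 2.22.

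The mixture of entries inside the order was compared by Bray-Curtis distance between shares of the order's reads. Treatment accounted for 0.0719 of the variation (R2, PERMANOVA, permutation p = 0.195, adjusted p = 0.26 over 4 orders) and batch for 0.0914 (permutation p = 0.104). Bacteroidales had an R2 of 0.267 (permutation, adjusted p = 0.0044). In batch E53B alone the R2 inside Lachnospirales was 0.287 (exact permutation test, p = 0.0397, adjusted p = 0.0529), and in batch E56A alone 0.0712 (exact permutation test, p = 0.73). The mean distance of mice to their group's center was 0.169 ± 0.0648 (SD, n = 10) in control mice and 0.21 ± 0.0592 (SD, n = 10) in FO mice (permutation test of dispersion, p = 0.164). Without control replicate 5 or FO replicate 8 the p of that difference was 0.0218 and 0.0414 (permutation test of dispersion, not adjusted). With Jaccard distance, which uses presence alone, the order of the groups turned, with 0.312 ± 0.0437 (SD, n = 10) in control mice and 0.267 ± 0.0323 (SD, n = 10) in FO mice (permutation p = 0.0166). These Jaccard values compare mice at unequal numbers of order reads, on average 3185 in control and 6967 in FO mice, and the part of that difference in them was not tested. On that distance treatment had an R2 of 0.0719 (permutation p = 0.0754, adjusted p = 0.101) and batch an R2 of 0.12025 (permutation p = 0.0015). Without control replicate 6 the p of batch with Bray-Curtis distance was 0.0438 (PERMANOVA, permutation). The p-values of dispersion and batch were not adjusted over the 4 orders, so the 5% threshold on adjusted p was not applied to them.

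The FO effect on single genera was last compared between the batches. With TMM, 0 of the 16 Lachnospirales entries had an effect that differed between batches, as 0.0% of all 59 genera did (edgeR interaction test). At an unadjusted p under 0.05 the count was 6 of all 59 genera and 2 of the 16, CAG-632 and CAG-95, both with the higher FO effect in batch E56A. The difference was 2.88 ± 0.82 (SE, edgeR adjusted p = 0.113) for CAG-632 and 1.97 ± 0.72 (edgeR adjusted p = 0.22) for CAG-95. For Kineothrix it was 1.37 ± 0.90 (edgeR adjusted p = 0.703).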

How the data were processed

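The authors amplified and sequenced the 16S rRNA V4 region of fecal DNA on an Illumina MiSeq, and trimmed, merged, quality-filtered and chimera-checked the reads in QIIME2. They assigned operational taxonomic units with a naive Bayes classifier trained on Greengenes2, and deposited whole-number read counts per taxon without normalization, pooled over no samples. The submitters' processing notes name bcl2fastq 2.2 and cutadapt. Samples were matched to rows by their labels. The family, genus and species tables were used, with the order table for the share of the order.

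Taxa were tested in edgeR 4.0.16 (quasi-likelihood, R 4.3.3) on the whole table, with TMM scaling, filterByExpr, a batch term and Benjamini-Hochberg adjustment at 5%; the test relative to the order covered orders with at least 100 reads in every mouse and 2 genera past the filter. Single measures were compared by permutation (100000 resamples, exact enumeration where a group had under 10 mice; scipy 1.17.1), and composition by PERMANOVA with 9999 permutations (vegan 2.7.1). Limma 3.58.1, DESeq2 1.42.0, other scalings, no filter, no batch term, each batch and each mouse left out were alternatives, with a pseudocount of 0.5 on log scales. Depth was 17218 to 57415 counts; a count of 0 allows 3 counts, and intervals and such limits cover counting error only. On simulated counts with 4-fold changes the genus fit called 70.8% of the changed genera tested (median 61 genera) and the fit relative to the order 54.4% (48 genera). The changed genera were drawn from below the most abundant ones, with as many raised as lowered. A joint shift of many taxa, as between Bacteroidales and the rest here, was not simulated. Named were all families, entries with a mean of at least 0.1% of all reads, and entries called. Members and lists were chosen with earlier results of these data known.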

Additional observations from a re-analysis of the deposited data

Results flagged for a closer look

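Of 50 group values checked (25 measures in each group of 10 mice), 9 had a mouse whose gap to its neighbour was large against the range of its group. For normally distributed values chance flags about 1 in 20, or 2.5 here. Shares need not be distributed in that way, and most entries were checked on 2 scales. The 9 flags therefore cannot be set directly against 2.5. In control mice these were Kineothrix in replicate 10 (1.15% of all reads, next 0.554%) and C-53 in replicate 2 (0.129% of all reads, next 0.0151%, and 2.89% of the order's reads, next 0.16%). Among FO mice, Kineothrix was high in replicate 4 (7.08% of all reads, next 3.14%, and 30.3% of the order's reads, next 17.6%), and C-53 in replicate 10 (1.62% of all reads, next 0.797%, and 10.9% of the order's reads, next 3.41%). Eubacterium_J was high in FO replicate 9 (0.659% of all reads, next 0.31%), and the entry with a blank family name in FO replicate 2 (1.44% of the order's reads, next 0.529%).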

How the results depend on the processing

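The share of all reads kept its direction in every alternative set at the start and its call in all but the centred log ratio (0.48, adjusted p = 0.183), and over fits without 1 mouse the difference ran from 8.14 to 9.69 points; among reads outside Bacteroidales, an alternative added after the data were seen, it turned to -2.84. Genera called with TMM numbered 0 to 3 when 1 mouse was left out, 1 (the no-genus entry) without control replicate 1 and FO replicate 5, 1 in batch E53B alone (CAG-632, lower, and neither of the 2 called in all mice), 0 in batch E56A alone and 7 with library totals. Over all orders 6 to 18 genera were called when 1 mouse was left out, and 10 of 61 without those 2 mice. The fit of E53B alone called 12 of 61, that of E56A alone 0 of 62 and that with library totals 29 of 59. When 1 mouse was left out, the single Lachnospirales call was CAG-632, lower, without control replicate 5 and the no-genus entry, higher, without FO replicate 4 or 6. There were 0 such calls without control replicate 2, 4, 7, 8 or 9. Species entries called numbered 1 to 3 without 1 mouse (1 without control replicate 2 or FO replicate 4), 3 without control replicate 1 and FO replicate 5, 1 in E53B (CAG-632 sp900539185, lower), 0 in E56A and 8 with library totals, and families 2 with library totals. Over all orders 13 to 21 species entries were called without 1 mouse and 18 of 72 without those 2 mice. The counts were 15 of 74 in E53B, 0 of 73 in E56A and 35 of 71 with library totals, and 14 of 25 families with library totals. Relative to the order the count was 1 in every fit without 1 mouse and at the species level (added later), and 0 in batch E56A alone, without a batch term and by the permutation test. Over the 4 orders 1 of 48 genera was called in E56A alone and 4 of 48 without a batch term. Interaction calls numbered 0 to 1, with 1 only without FO replicate 8. Which cause lies behind these changes was not tested. The difference in Shannon index turned to 0.0685 in E53B and 0.0095 with named species only, and ran from -0.046 to 0.0179 without 1 mouse. The difference in entries at equal depth turned to 2.93 in E53B, 0.491 with named species only and 5.30 without drawing down, and ran from -1.52 to 0.608 (the last without control replicate 5, which sets the depth); none of these passed. The R2 ran from 0.0549 to 0.109 without 1 mouse. Some log2 changes turned sign against the first fit of all mice, and none of these was called in that fit or in the fit that turned. They were in the genus table CAG-632 in E56A (0.0757, though called in E53B alone at -2.99), CAG-95 without control replicate 1 and FO replicate 5 (-0.03) and in E53B (-0.92), Eubacterium_J with DESeq2 (-0.0309), without those 2 mice (-0.29) and in E53B (-0.37), and UBA3282 in E53B (-0.12, though called with library totals at 0.83). Relative to the order they were, all in E56A, CAG-95 (0.40), COE1 (-0.25) and the Lachnospiraceae entry with no genus (-0.0931). In the family table they were Lachnospiraceae without those 2 mice (-0.02) and in E53B (-0.23), and the blank family with library totals (0.77). Without 1 mouse, in the genus table, CAG-95 ran from -0.0563 to 0.42, Eubacterium_J from -0.23 to 0.33 and UBA3282 from -0.10 to 0.29, and Lachnospiraceae in the family table from -0.0215 to 0.41. DESeq2 gave no p for Kineothrix in the genus table. No paired analysis was possible because the replicate numbers follow the order of the samples and pair no mice. Depth limits CAG-632 most in FO replicates 6 and 7, with 7 and 8 reads, and in control replicate 5, with 5 of 916 order reads.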
